A study of Mus musculus with 4 samples.

Results

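The strong WT-restricted intergenic regions are stretches of open chromatin away from protein-coding genes that carried a clear ATAC-seq peak in both WT libraries and no listed peak in either CTCF-K20R library. They were selected on the measured peaks themselves: peaks of the 4 libraries were merged where they shared 1 bp, and a region was kept when its −log10 q-value was at least 10 in both WT lists, when it held no CTCF-K20R peak, and when its strongest summit lay over 1 kb from every protein-coding transcription start site (TSS) and outside every protein-coding gene body. In all, 607 of 80380 merged regions met the rule, or 1.97% of the 30784 intergenic regions, and they made up 607 of the 1303 regions of every genomic class that met the same strength rule.

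Mouse E14Tg2A embryonic stem cells (mESCs) of wild-type genotype (WT) were compared with the same line in which lysine 20 of CTCF had been changed to arginine by CRISPR/Cas9 (CTCF-K20R). The number of mutant clones behind the libraries is not given in the sources used here. Both genotypes were grown on mitotically inactivated mouse embryo fibroblasts, then differentiated for 4 days as embryoid bodies (EBs) in hanging drops without leukemia inhibitory factor. There were 2 ATAC-seq libraries per genotype, so any single value compared between genotypes rests on 2 against 2, for which an exact permutation test cannot go below p = 0.33.

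ATAC-seq marks DNA that is free enough for the Tn5 transposase to enter. Open sites far from promoters are often enhancers, which are opened by cell type-specific transcription factors and contact their target genes by looping of the chromatin fibre, a process in which CTCF and cohesin take part. Around gastrulation, T-box factors such as Brachyury and Eomes, GATA factors and forkhead factors open such sites in mesoderm and endoderm, ZIC factors act in mesoderm and neural progenitors, and basic helix-loop-helix (bHLH) factors bind E-boxes.

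Windows of 201 bp centred on the strongest summit are shown for 8 of the regions, on the forward strand of mm10. The Tcf7l2, Lrig1 and Mesp1 regions are the 3 strongest of the 607, the Stx16 region is the next strongest with a GATA match, the Sem1 and Gm33543 regions are the strongest with the full T-box consensus, the Fbn1 region held a pair of GATA and a pair of E-box matches, and the Lmo4 region is an example of the few with a CTCF consensus. Capitals mark matches, on either strand, to the T-box consensus TCACACCT, its core AGGTGT, the letters AGATAA of GATA factors, TGTTTAC of FOX factors, the E-box CAGCTG, the letters CAGCAGG of ZIC factors and the CTCF consensus. The choice of what to capitalise was made after the shares had been seen.
Region nearest Tcf7l2, chr19:55700460-55700660: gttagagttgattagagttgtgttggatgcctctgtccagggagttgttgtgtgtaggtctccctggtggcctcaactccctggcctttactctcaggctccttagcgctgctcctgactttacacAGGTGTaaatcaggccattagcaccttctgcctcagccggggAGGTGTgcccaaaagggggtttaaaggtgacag
Region nearest Lrig1, chr6:94729262-94729462: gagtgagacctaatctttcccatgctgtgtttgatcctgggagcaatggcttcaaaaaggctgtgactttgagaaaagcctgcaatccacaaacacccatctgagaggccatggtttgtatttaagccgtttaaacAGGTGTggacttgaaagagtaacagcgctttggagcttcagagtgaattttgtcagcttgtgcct
Region nearest Mesp1, chr7:79789382-79789582: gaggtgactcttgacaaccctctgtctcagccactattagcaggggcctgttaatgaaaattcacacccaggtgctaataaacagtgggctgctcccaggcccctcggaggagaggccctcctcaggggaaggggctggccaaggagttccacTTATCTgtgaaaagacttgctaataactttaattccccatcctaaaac
Region nearest Stx16, chr2:174061128-174061328: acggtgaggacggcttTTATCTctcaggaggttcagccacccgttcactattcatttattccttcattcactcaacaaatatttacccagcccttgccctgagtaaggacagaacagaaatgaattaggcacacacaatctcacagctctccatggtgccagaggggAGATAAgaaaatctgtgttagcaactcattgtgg
Region nearest Sem1, chr6:6463869-6464069: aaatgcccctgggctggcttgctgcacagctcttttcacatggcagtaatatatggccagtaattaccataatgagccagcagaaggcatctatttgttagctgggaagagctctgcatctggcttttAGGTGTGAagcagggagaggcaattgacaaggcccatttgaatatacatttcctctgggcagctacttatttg
Region nearest Gm33543, chr10:95760200-95760400: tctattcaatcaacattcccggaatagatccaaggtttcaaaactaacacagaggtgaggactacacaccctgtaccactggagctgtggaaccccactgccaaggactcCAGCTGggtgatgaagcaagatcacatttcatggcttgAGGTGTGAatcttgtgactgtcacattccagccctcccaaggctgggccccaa
Region nearest Fbn1, chr2:125516685-125516885: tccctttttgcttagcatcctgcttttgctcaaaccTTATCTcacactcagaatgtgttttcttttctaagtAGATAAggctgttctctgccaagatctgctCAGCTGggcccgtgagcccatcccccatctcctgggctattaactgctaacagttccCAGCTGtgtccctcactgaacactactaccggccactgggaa
Region nearest Lmo4, chr3:143949103-143949303: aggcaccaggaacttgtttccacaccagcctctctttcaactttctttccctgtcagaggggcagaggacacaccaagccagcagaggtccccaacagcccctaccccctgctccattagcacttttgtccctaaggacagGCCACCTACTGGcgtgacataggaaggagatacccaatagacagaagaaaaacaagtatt

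These windows show the range of sequence behind the class. The Tcf7l2 window held the T-box core at 2 positions, the Lrig1 window held it once, and none of the 3 strongest windows held the full T-box consensus. The Mesp1 window held 1 GATA match, and the Stx16 window held 2. In the Gm33543 window a T-box consensus and an E-box lay within the same 201 bp, and in the Lmo4 window the CTCF consensus was the sole capitalised match.

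The strength of the regions in WT cells is a description, since it chose them. In WT replicate 1 the percentile of a region's peak within its list, by p-value, ran from 52.6 to 97.3 with a median of 63.9, and in WT replicate 2 from 39.0 to 95.5 with a median of 68.5. Most members thus sat in the upper middle of the WT lists rather than at the top. The fold over local background at the summit had a median of 6.53 in WT replicate 1 and 8.65 in WT replicate 2, and was higher in replicate 2 at 555 of the 607 regions (91.4%). The same held at 89.0% of the 12657 intergenic regions open in all 4 libraries, so the gap was shared by open intergenic regions in general. The number of reads stacked over the summit (the pileup) had medians of 31 and 49 and ranges of 21 to 113 and 21 to 183. The plot of WT percentiles shows how closely the replicates ranked the same regions.

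**Figure D1:**
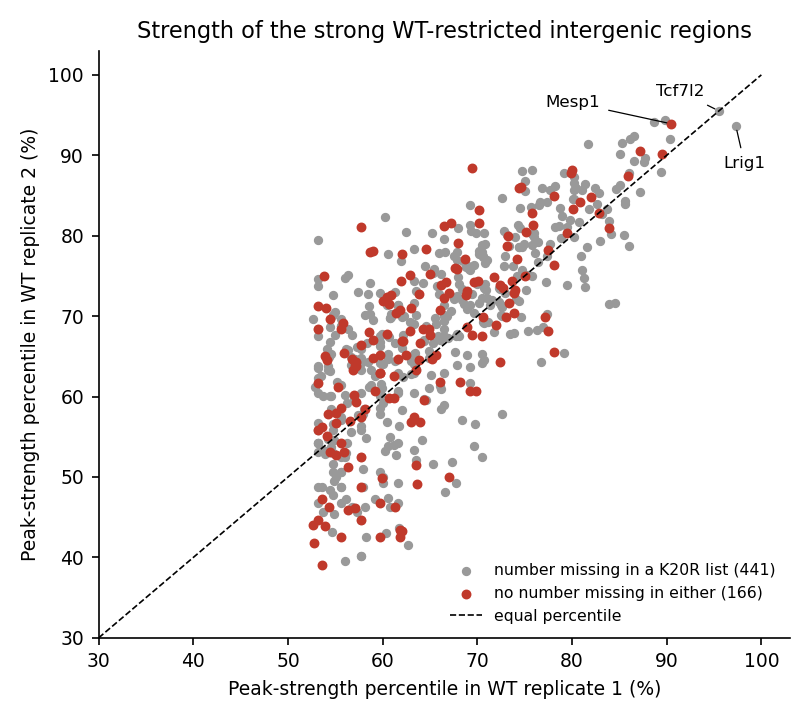
Peak-strength percentile of each of the 607 regions in WT replicate 1 (x axis) and WT replicate 2 (y axis), each as a percentage of that library's peaks; each point is 1 region and the dashed line marks equal percentiles. Red points are the 166 regions next to which no peak number is missing in either CTCF-K20R list, and they spread over most of the range of the 441 grey points, with Tcf7l2, Lrig1 and Mesp1 at the upper end.

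At the threshold, the regions nearest Bcas1, Aldh1b1 and Pdpn were just inside, with a smaller WT −log10 q of 10.0, 10.0 and 10.0, and those nearest Hnrnpf, Med13l and Smpd4 were just outside, with 9.98, 9.98 and 9.97. The cut-off thus ran through regions of almost the same strength.

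Absence of a CTCF-K20R peak is limited by the lists. Peaks are numbered in order along the genome when they are called, and 51.7% and 50.5% of the numbers remained in the WT lists and 58.6% and 60.8% in the CTCF-K20R lists. By which rule peaks had been removed is not given in the sources used here, so a region without a listed peak may have had a called one. For 166 of the 607 regions (27.3%) the CTCF-K20R peaks on either side carried consecutive numbers in both lists, so that no called peak could have been removed between them. These 166 regions had median WT pileups of 33 and 50.5 reads, whereas listed CTCF-K20R peaks went down to 8 reads. The Mesp1, Zfp516 and Tgfbr2 regions were among them, and the Tcf7l2 region, with 1 missing number in each CTCF-K20R list, was not.

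The count was lopsided between genotypes. With the roles of the genotypes exchanged, the same rule found 101 strong CTCF-K20R-restricted intergenic regions (0.328% of intergenic regions). Of the 7759 intergenic regions at a −log10 q of 10 or more in both WT lists, 607 (7.82%) had no CTCF-K20R peak, against 101 of 7043 (1.43%) in the opposite direction. On the log2 scale the ratio of 607 to 101 was 2.59, and it fell to 0.94 without WT replicate 2 and to 0.69 without CTCF-K20R replicate 1. The number of members rose to 1800 without WT replicate 1 and to 960 without CTCF-K20R replicate 2. The libraries differed in enrichment, with second replicates above first: strong intergenic peaks numbered 7983 and 13590 in the WT libraries and 7238 and 11734 in the CTCF-K20R libraries. These per-library numbers overlapped between genotypes (WT 10786.5 ± 3965, CTCF-K20R 9486 ± 3179, SD, n = 2 each; log2 ratio 0.18; exact two-sided permutation test, p = 0.667). The full lists did not overlap: they held 59783 and 66703 peaks in the WT libraries and 51823 and 55832 in the CTCF-K20R libraries. Intergenic peaks of any strength numbered 21628 and 24835 against 18438 and 20326. With the same number of strongest peaks taken per list, the log2 ratio of restricted regions was 1.80. The part of library enrichment and list length in the number of members was not tested beyond these values.

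Regions were also chosen on 1 library of each genotype and looked up in the other. By construction the 607 members were among the regions chosen in each direction, so these shares partly restate the rule. When regions were chosen on the first replicates alone (strong in WT replicate 1, no peak in CTCF-K20R replicate 1), 1032 qualified. Of these, 97.6% had a peak in WT replicate 2 and 35.9% had one in CTCF-K20R replicate 2. Among all 7943 intergenic regions of that strength in WT replicate 1, the corresponding shares were 99.5% and 90.1%. Chosen on the second replicates, 2149 regions qualified, of which 84.8% had a peak in WT replicate 1 and 16.8% in CTCF-K20R replicate 1, against 93.6% and 79.1% of all 13457 regions of that strength. The members alone made up 607 of the 1032 regions chosen on the first replicates. A majority with a held-out WT peak and no held-out CTCF-K20R peak was thus fixed in advance there. They also made up 607 of the 2149 chosen on the second replicates, so neither direction is an independent check. Some of the apparent absences, 371 of 1032 and 362 of 2149, did not recur.

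The 3 strongest regions lay near genes with known roles in development. The region nearest Tcf7l2, which encodes a transcriptional effector of Wnt signalling, covered chr19:55700072-55701220, 41260 bp upstream of the TSS and inside the lincRNA gene 4930552P12Rik. Its percentiles were 95.5 and 95.5, and its pileups were 111 and 166 reads in WT replicates 1 and 2. The region nearest Lrig1, a negative regulator of receptor tyrosine kinases, covered chr6:94728679-94730190, 29217 bp upstream of the TSS, with pileups of 113 and 134 reads. It had the highest percentile of any member in WT replicate 1, 97.3.

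The third was the region at chr7:79788977-79790013, whose summit lay 4306 bp past the Mesp1 TSS, beyond the 3′ end of this short gene. Mesp1 encodes a bHLH factor of the earliest cardiac mesoderm, and Mesp2, its neighbour, acts in somite formation. Pileups at the region were 113 and 183 reads, the largest of any member in WT replicate 2 and level with the Lrig1 region in WT replicate 1, and no number was missing around it in either CTCF-K20R list. In the CTCF-K20R libraries the nearest listed peaks started about 2.7 kb away, at the Mesp1 gene itself, and a weaker peak lay on the other side, at the end of Wdr93, with pileups of 30 and 27 reads. That peak had no counterpart in the WT lists.

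The other peaks within 30 kb that all 4 libraries shared were lower in CTCF-K20R cells or overlapped between genotypes by pileup. The Mesp1 promoter peak had a pileup of 50 and 71 reads in the WT libraries and 47 and 72 in the CTCF-K20R libraries, so the genotypes overlapped. Its fold over local background was nevertheless lower in WT cells (2.62 and 2.79) than in CTCF-K20R cells (5.79 and 8.42). At the peak that starts 21 kb from the summit, at the Mesp2 promoter, pileups were 83 and 134 reads in WT and 41 and 66 in CTCF-K20R libraries. The peak about 9 kb from the summit on the side of Mesp1 had 43 and 65 reads in WT and 20 and 23 in CTCF-K20R libraries. On the other side, the peak at Wdr93 nearest to the region in both WT lists overlapped between genotypes, with 35 and 57 against 34 and 48 reads. Peaks around the Tcf7l2 region leaned the other way. There, the peak within 30 kb that all 4 libraries shared had 13 and 17 reads in WT and 19 and 23 in CTCF-K20R libraries. A nearer peak had 19 reads in WT replicate 1, none listed in WT replicate 2, and 26 and 47 reads in CTCF-K20R libraries. WT replicate 2 alone listed a peak of 14 reads. Lower neighbouring peaks were thus not seen at both loci. The map of the Mesp1 locus shows the peaks of each library around that region.

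**Figure D2:**
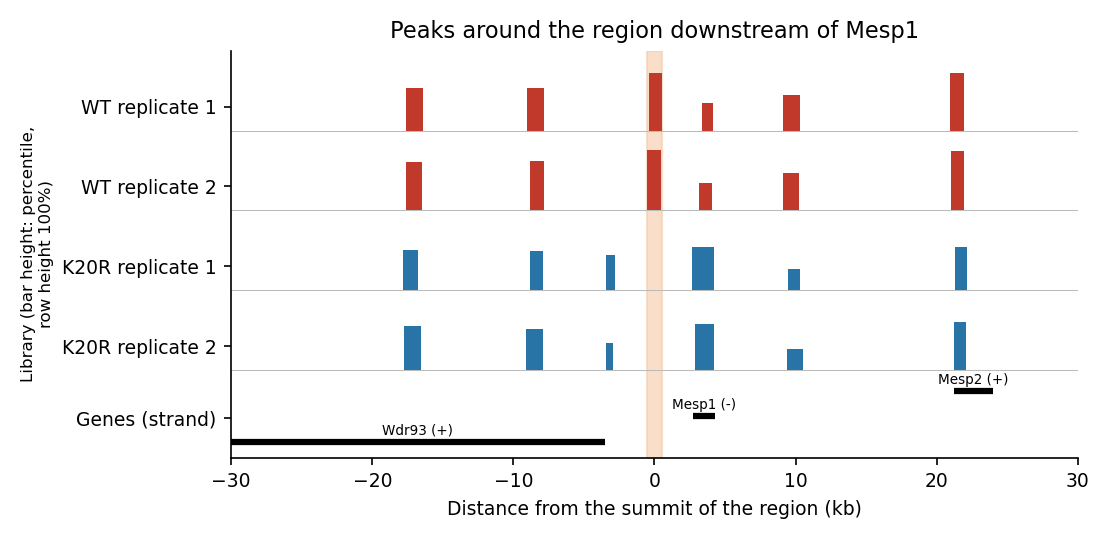
Listed peaks within 30 kb of the summit of the Mesp1 region (x axis, kb) in the 4 libraries, with 1 row per library; bar width is the peak's length and bar height its percentile within its list, on a row height of 100%. The shaded strip at 0, where both WT rows carry a peak above the 90th percentile and both CTCF-K20R rows are empty, is the region itself, and black bars are protein-coding genes with their strand.

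Other regions among the 12 strongest were nearest to Lgalsl, Jag1, Frzb, Zfp516, Stx16, Tgfbr2, Gm26897 and Il7. Jag1 encodes a Notch ligand, Frzb a secreted Wnt antagonist and Tgfbr2 a TGF-β receptor. The Jag1 region, at chr2:137664905-137665726, was 548402 bp upstream of the Jag1 TSS and had the highest WT fold over background of any member, 16.1 in replicate 2 (12.3 in replicate 1). The Tgfbr2 region, at chr9:116388647-116389686, was 213834 bp upstream, and the Frzb region, at chr2:80398568-80399499, was 48635 bp downstream of the start. Pileups of these 8 regions ran from 62 to 86 reads in WT replicate 1 and from 105 to 138 in WT replicate 2. The nearest gene is the nearest in sequence, and no contact with it was measured.

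Members lay far from protein-coding TSSs. The median distance to the nearest protein-coding TSS was 56547 bp, against 27389 bp for the 6685 intergenic regions open in all 4 libraries with the same minimum −log10 q in both WT lists (hereafter common regions), 42077 bp for 3036 weaker WT-restricted regions, 35123 bp for the 101 strong CTCF-K20R-restricted regions and 32708 bp for all intergenic regions. The common regions were somewhat stronger than the members, with median WT percentiles of 69.9 and 73.3. Over 100 kb from any protein-coding TSS were 214 members (35.3%, 95% Wilson interval 31.6 to 39.1), against 17.3% of common regions, and 17 members were over 500 kb away. Among the 166 members without a missing number the median was 34565 bp, so the distance depended on which members were counted. Of the 607, 61.0% lay upstream of the nearest TSS, against 63.5% of all intergenic regions. The curve of distances shows the members to the right of each other set from about 20 kb to 200 kb.

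**Figure D3:**
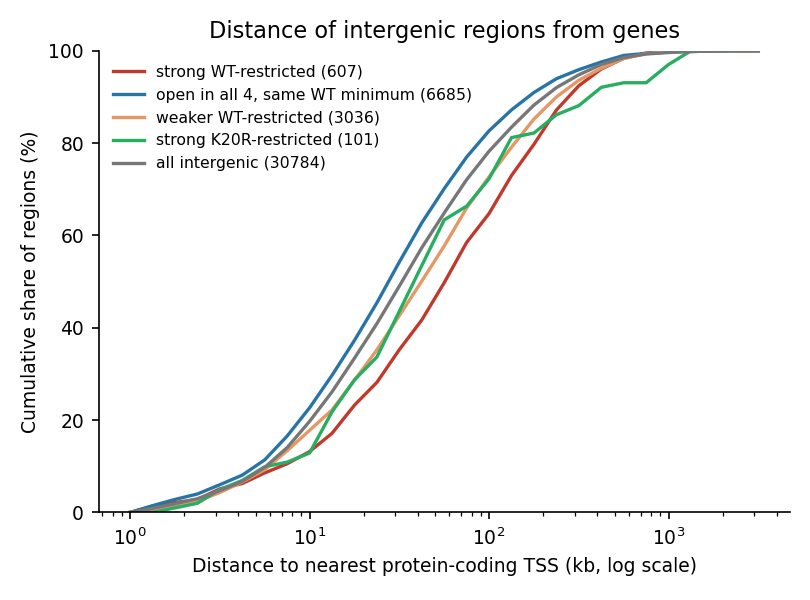
Cumulative share of regions (y axis, %) by distance from the strongest summit to the nearest protein-coding TSS (x axis, kb, log scale) for 5 sets of intergenic regions, with the number of regions in brackets. The members reach 50% at a median of 56547 bp, later than the common regions at 27389 bp.

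A noncoding gene body held 102 members (16.8%), of which 75 were in lincRNA genes, and 29 lay within 1 kb of a noncoding TSS. The members were spread over the genome: the share of intergenic regions that were members ran from 0.942% on chromosome X and 1.19% on chromosome 11 to 2.80% on chromosome 9 and 3.19% on chromosome 16. Chromosome Y had 2 members among 4 intergenic regions, beside 5 and 6 listed peaks in all on this chromosome in the WT libraries and 1 and 2 in the CTCF-K20R libraries. Whether all CTCF-K20R cells carried chromosome Y was not tested, and for these 2 members fewer copies and less open chromatin cannot be told apart. No 3 members followed each other within 50 kb, and 31 neighbouring pairs did. The nearest CTCF-K20R peak was a median of 10951 bp from the member, and 22 members had one within 1 kb.

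The 607 members had 547 nearest genes, of which 496 had 1 member, 45 had 2 and 6 had 3 or more. Zfp608 had 5, Gata6, an endoderm and cardiac mesoderm factor, had 4, and Cxcr4 (a chemokine receptor), Haao, Sox11 (a neural SoxC factor) and Tle3 (a Groucho corepressor) had 3 each. How many of all intergenic regions were nearest to each of these genes was not counted, so these numbers do not set the genes apart. The Gata6 regions lay 116516 bp and 94597 bp upstream and 44653 bp and 158827 bp downstream of the TSS, with WT pileups of 23 to 40 reads in replicate 1 and 31 to 84 in replicate 2. The 3 Sox11 regions lay 123242 bp and 304231 bp upstream and 215352 bp downstream, and each held an E-box CAGCTG, 2 of them with a GATA match.

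Genes of 7 developmental lists had few members nearby. Within 50 kb of an early mesoderm or primitive streak gene there was 1 member among 111 intergenic regions (the Mesp region). Cardiac and lateral mesoderm genes had 3 of 122 (Gata6, Foxc1 and Bmp4), hemato-endothelial genes 2 of 49 (Etv2 and Runx1), endoderm genes 2 of 42 (Foxa2 and Cldn6), neuroectoderm genes 1 of 110 (Neurog1), fibroblast genes 1 of 50 (Fbn1) and pluripotency genes 0 of 113. These counts are too small to set any list apart from the 1.97% of all intergenic regions that were members. The Foxc1 region, at chr13:31759722-31761161, was the strongest of those besides Mesp, with pileups of 60 and 84 reads, and lay 46108 bp upstream of this forkhead gene of paraxial and cardiac mesoderm. The Foxa2 region, at chr2:148004982-148005677 and downstream of this endoderm and node forkhead gene, had pileups of 33 and 60 reads and a GATA match. The Runx1 region, 2227 bp from the TSS of this hematopoietic factor, had 26 and 43 reads, and the Bmp4 region, 46261 bp upstream, had 27 and 56.

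Promoters of listed genes next to members were peaks that the rule had not used. Such a peak was listed in every library for 10 of these 11 genes, the exception being Etv2. Ranked among all such promoters, 6 were lower in both CTCF-K20R libraries than in both WT libraries (Fbn1, Foxa2, Gata6, Mesp2, Neurog1 and Runx1) and 2 were higher (Mesp1 and Cldn6). These ranks go by p-value, which depends on local background as well as on reads. At Mesp1 the pileups overlapped (50 and 71 reads in WT, 47 and 72 in CTCF-K20R libraries), so its higher rank does not stand for more reads. Pileups at the Fbn1, Foxa2, Gata6, Neurog1, Runx1 and Cldn6 promoters were not compared, so their ranks carry the same limit. By the same ranking, the Gata6 promoter was at percentile 40.5 and 51.2 in the WT libraries and 8.18 and 12.7 in the CTCF-K20R libraries. The Foxa2 promoter ranked at 85.3 and 86.1 in WT cells and 39.1 and 31.5 in CTCF-K20R cells. Over all nearest genes of members no such lean was seen: of 427 with a promoter peak in all 4 libraries, 99 (23.2%) were lower and 98 (23.0%) higher in CTCF-K20R, against 23.0% and 23.8% of all 13943 promoters. Both shares were near the background. Listed genes without a member nearby also had promoters that ranked lower in both CTCF-K20R libraries, such as T, Gata4 and Nkx2-5. Others ranked higher, such as Eomes, Pdgfra and Sox2, but fewer of them did so than ranked lower. Listed genes without a member nearby thus leaned the same way, and no lean particular to the 10 genes was seen.

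Open sites around the members leaned lower. Of the 834 intergenic regions within 50 kb of a member that were open in all 4 libraries, 299 (35.9%) ranked lower in both CTCF-K20R libraries than in both WT libraries and 229 (27.5%) ranked higher. The background over all 12657 such regions was 27.7% lower and 31.0% higher. Within 10 kb, 71 of 202 (35.1%) ranked lower and 57 (28.2%) higher. Neighbours of the 101 CTCF-K20R-restricted regions were close to this, with 56 of 161 lower (34.8%), so no lean particular to the members was seen.

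The DNA under the summits was poorer in GC and CpG than that of common regions. Within 100 bp of the summit the median GC content was 50.7%, against 54.7% in common regions, and the median number of CpG dinucleotides was 2, against 4. Summits in soft-masked repeats numbered 41 (6.75%), against 8.35% of common regions and 33.7% of the CTCF-K20R-restricted regions. GC content was close to that of all intergenic regions (51.2%) and of weaker WT-restricted regions (50.2%). The median width was 858 bp in members, 1064 bp in common regions, which merge peaks of more libraries, 662 bp in all intergenic regions and 574.5 bp in weaker WT-restricted regions.

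The CTCF consensus was rare in the members. It occurred in 8 of 607 windows (1.32%, 95% Wilson interval 0.669 to 2.58), against 8.84% of common regions (8.18 to 9.55), 7.92% of CTCF-K20R-restricted regions and 7.74% of all intergenic regions. The strongest of the 8 were the regions nearest Tlr4, Lmo4 and Tspan14, with WT pileups of 24 to 26 reads in replicate 1 and 40 to 48 in replicate 2, well under the strongest members. The 3036 weaker WT-restricted regions held it at 2.93%. No match says only that these letters are not in the window, and no CTCF binding was measured in these libraries.

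Consensus sequences of T-box, GATA and FOX factors were more frequent in members than in common regions. The T-box consensus TCACACCT was in 33 members (5.44%, interval 3.90 to 7.54), against 1.12% of common regions (0.896 to 1.40) and 1.40% of windows 500 bp to either side of the members' own summits. GATA letters AGATAA were in 116 members (19.1%, 16.2 to 22.4), against 7.17% of common regions and 13.0% of the members' flanks. The flanks give the level of these letters in the sequence around the members, which was already above that of the common regions. FOX letters TGTTTAC were in 55 members (9.06%, 7.03 to 11.6), against 3.68% of common regions and 3.54% of flanks. The 3036 weaker WT-restricted regions also lay above common regions, at 2.60% for T-box, 13.8% for GATA and 6.39% for FOX. These shares were below those of members, but the FOX intervals overlapped. Of the 101 CTCF-K20R-restricted regions, 1 held the T-box consensus, 2 held GATA letters and 5 held FOX letters. In this small set only the GATA interval did not overlap that of members. The core AGGTGT, which every full T-box match contains and which was added after the strongest windows had been read, was in 122 members (20.1%), against 11.7% of common regions and 11.9% of flanks.

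E-box and ZIC letters were the most frequent of all matches. The E-box CAGCTG was in 155 members (25.5%, 22.2 to 29.2), against 17.7% of common regions and 8.98% of flanks, and ZIC letters CAGCAGG were in 136 (22.4%, 19.3 to 25.9), against 18.1% and 5.68%. Among the 166 members without a missing number, however, the ZIC share was 14.5%, below that of common regions. Both were thus more frequent at summits than in flanks in members and in common regions alike. The homeobox core TAATTA was in 8.90% of members and 3.58% of common regions, and OTX-GSC letters TAATCC were in 11.7% and 6.01%, but the members' flanks held these at 6.43% and 9.23%. ETS letters CCGGAAG went the other way, in 4 members (0.659%) and 3.50% of common regions, as did KLF letters CCACCC, in 20.6% and 25.7%. The AP-1 letters TGANTCA (9.39% of members) and the POU octamer ATGCAAAT (2.47%) had intervals that overlapped those of common regions. NKX letters CACTTGA were in 4.78% of members and 2.21% of common regions, with intervals that did not overlap. For the other 7 sequences searched (TCF-LEF, SOX, CDX, TEAD, FOXH1, RUNX and the E-box CATCTG) the intervals of both sets overlapped, and the shares among members ran from 1.15% for FOXH1 to 17.1% for CATCTG. Intervals cover counting error only, and regions are not replicates of a genotype.

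**Figure D4:**
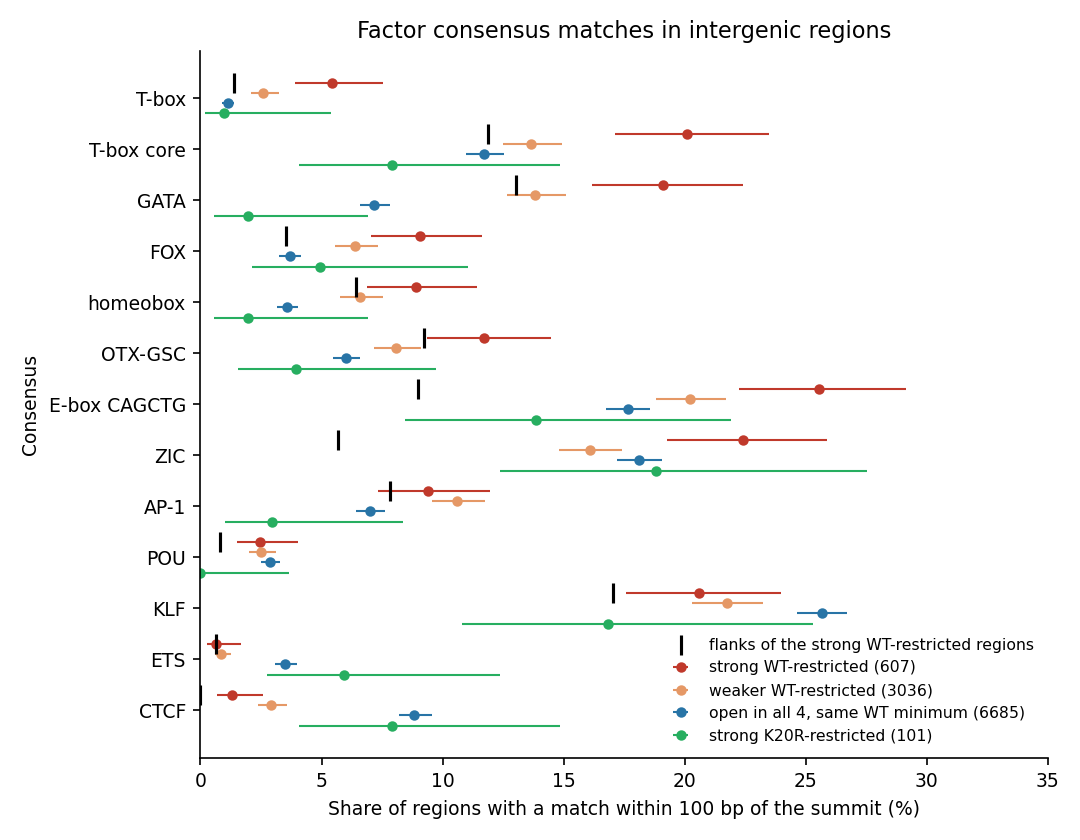
Share of regions with at least 1 match within 100 bp of the strongest summit (x axis, %) for 13 consensus sequences (y axis) in 4 sets of intergenic regions; points are shares, bars are 95% Wilson intervals, and black ticks are the share in windows 500 bp to either side of the members. Members stand above the common regions for T-box (5.44% and 1.12%), GATA (19.1% and 7.17%) and FOX (9.06% and 3.68%) and below them for CTCF (1.32% and 8.84%) and ETS.

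Position around the summit differed between consensus sequences. In bins of 50 bp, T-box matches in members were most frequent in the bins centred at 0 and 50 bp, with 9 and 10 regions (1.48% and 1.65%), whereas common regions held 0.284% and 0.329% there. The bins were thinly filled: the bin at −50 bp held 4 regions (0.659%), and so did the one at −500 bp. FOX matches reached 3.13% in the central bin, against 0.927% in common regions. GATA matches in members were at 4.78% at the centre and 6.26% at 50 bp, but also at 5.27% at 300 bp and 4.28% at 600 bp, so they formed no narrow peak. In common regions they were lowest at the centre, at 1.68%. Common regions had CTCF matches to either side of the summit, at 3.52% and 3.64% of regions in the bins at 50 bp before and after it. The profiles show the peaked T-box, FOX, E-box and ZIC matches and the near absence of CTCF from the members.

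**Figure D5:**
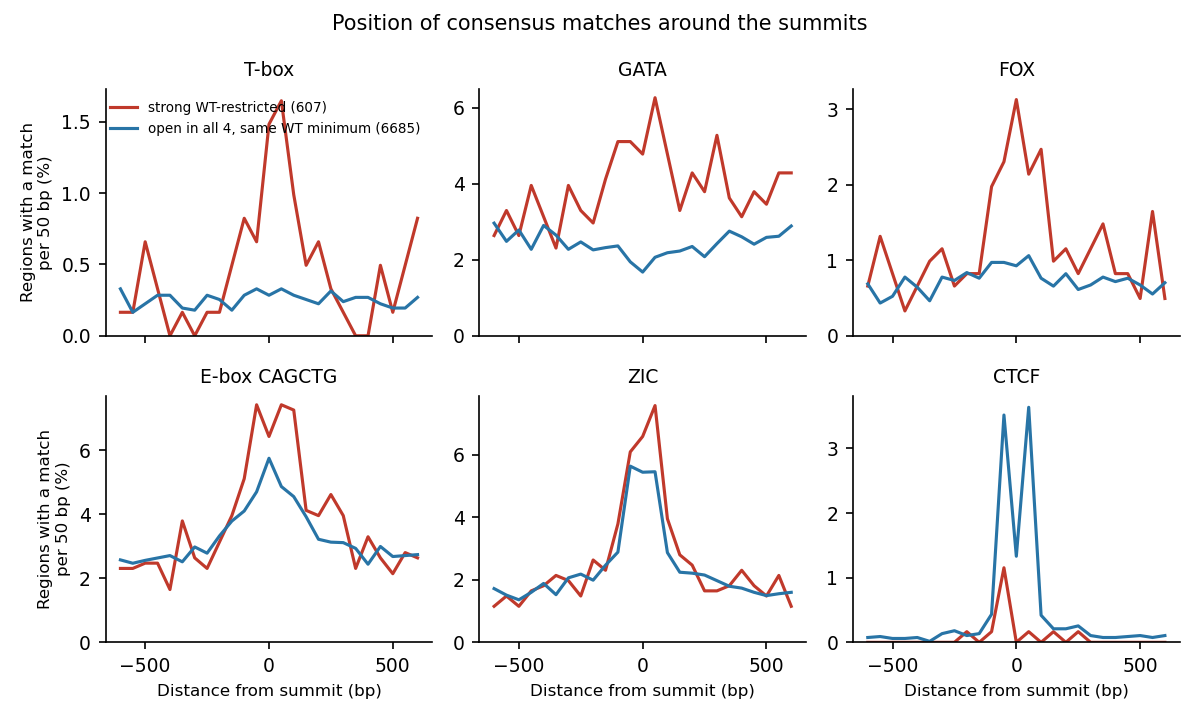
Share of regions with a match whose middle falls in each 50 bp bin (y axis, %) by distance from the strongest summit (x axis, bp) for 6 consensus sequences; red lines are the 607 members and blue lines the 6685 common regions, and the y axes differ between panels. The red T-box line rises to 1.65% in the bin at 50 bp and the red FOX line to 3.13% in the central bin. The CTCF panel is filled by the blue line.

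Some windows held more than 1 kind of match. T-box and GATA matches shared 4 windows, FOX and GATA 13, GATA and the E-box 25, and the E-box and ZIC 34. At least 1 of these 5 consensus sequences was in 372 members (61.3%), against 39.8% of common regions, and 71 members (11.7%) held none of the 20 listed sequences. The mean WT percentile, on which members were partly selected, had a median of 64.9 in members with a T-box match and 66.0 in those without. It was 66.8 with a GATA match and 65.7 without, and 59.2 for the 8 members with the CTCF consensus and 66.0 for the rest. Among the other sequences it was highest for the 4 members with ETS letters (78.6), and it was 72.3 for POU, 70.8 for the homeobox core and 59.9 for RUNX. These are descriptions with no test.

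Marker promoters were open for several lineages. Every library listed a promoter peak for the mesoderm genes T, Mesp1, Eomes and Mixl1 and the pluripotency genes Nanog and Zfp42. Each also listed one for 9 of the 16 fibroblast genes, Col1a1 and Col1a2 among them, whereas Col3a1, Lum and Postn had none in any library. The mesoderm promoters did not move together. That of T, which encodes Brachyury, stood at percentile 83.2 and 82.8 of the WT lists and 66.7 and 65.6 of the CTCF-K20R lists. Mixl1 stood at 83.0 and 82.8 against 77.8 and 79.7, and Eomes at 72.8 and 65.8 against 75.5 and 74.1. Mesp1 stood at 43.5 and 43.4 against 67.3 and 72.4, with pileups that overlapped between genotypes. Of the pluripotency promoters, Zfp42 stood at 79.9 and 86.8 in WT cells, below 89.3 and 92.4 in CTCF-K20R cells, and Nanog at 73.7 and 82.5 against 72.1 and 68.5. Pou5f1 had no listed promoter peak in CTCF-K20R replicate 1. Of the endoderm markers, Sox17 stood at 51.8 and 31.7 in WT against 1.77 and 28.4 in CTCF-K20R lists. Foxa2 stood at 96.7 and 97.1 against 81.1 and 78.9, and Afp, a later marker, had no promoter peak in any library. Of the neuroectoderm markers, Sox1 stood at 39.2 and 66.2 against 57.3 and 62.5, and Pax6 at 77.4 and 79.2 against 74.5 and 69.7. In such bulk samples, fewer cells with an open region and less opening per cell cannot be told apart, and the part of cell composition in the members was not tested.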

How the data were processed

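Differentiated EBs on day 4 were profiled by ATAC-seq in 2 WT and 2 CTCF-K20R libraries. Per the study's methods, the authors trimmed reads with Trim Galore, aligned them to mm10 with Bowtie2, discarded reads of low mapping quality, duplicates and blacklisted reads, and called peaks with MACS2 under default parameters. No shift of reads for the Tn5 cut was stated. The files deposited by the authors list, for each peak, an integer score, the fold (ratio over local background) at the summit, and the −log10 p-value and −log10 q-value. The lowest −log10 p-values were 2.00 and 2.00 in the WT lists and 2.02 and 2.02 in the CTCF-K20R lists. Each list thus ended just above 2, a cut that the study's methods do not state. Read totals were not used here. The pileup at each summit, recovered from fold and p-value, came out whole (within 0.05) for 100.0% of peaks, and the lowest pileups were 7, 7, 8 and 8. The background level gave relative depths of 1, 0.976, 1.15 and 1.04 (WT replicates 1 and 2, CTCF-K20R replicates 1 and 2).

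Peaks were merged, ranked by p-value within each list and placed on GENCODE M21 basic annotation. Sequence came from the GRCm38.p6 assembly, in windows of 201 bp, and both strands were searched for 20 consensus sequences. Peaks were assigned to a promoter when their summit lay within 1 kb of a protein-coding TSS. Python 3.11.15, numpy 2.4.6, pandas 2.3.3, scipy 1.17.1 and matplotlib 3.10.9 were used, and the scripts were tested on simulated peaks. Shares carry 95% Wilson intervals, and the number of strong peaks per library was compared between genotypes by an exact permutation test. The study's methods call the replicates biological; the labels do not say how they were separated.

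The regions, gene lists and consensus sequences were chosen with earlier results of these data known. Regions were named as the 12 strongest, those within 50 kb of a listed gene, those just inside and outside the threshold, and the 3 strongest with a CTCF, T-box or GATA match. One of the regions so chosen is not reported here. Genes nearest to 3 or more members were named after their counts were seen. Alternatives changed the q-value minimum, merging, annotation, window, number of peaks taken and libraries used.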

Additional observations from a re-analysis of the deposited data

How the results depend on the processing

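The number of members was 1507 at a −log10 q minimum of 5, 166 at 20 and 166 where no CTCF-K20R peak number was missing; leaving out 1 library gave 665 to 1800. The log2 ratio to CTCF-K20R-restricted regions was 2.09, 3.38 and 2.92 in the first 3 settings and 1.80 with the same number of strongest peaks per list, and 0.69 to 3.54 with 1 library left out. At the minimum of 5 the CTCF share was 2.85%, T-box 3.85%, GATA 15.3% and the median distance 47965 bp; at 20 no CTCF match was left (0%). Where no number was missing, the repeat share was 3.61% and the distance 34565 bp. Windows of 50 bp to either side gave GC 51.5%, CTCF 0.659%, T-box 2.64% and GATA 10.4%, and windows of 150 bp gave GATA 25.2%. With 1 library left out, CTCF ranged from 1.94% to 4.06%, T-box from 3.89% to 5.11%, GATA from 15.8% to 17.7% and the distance from 46800 bp to 55092 bp. Without WT replicate 1 and without CTCF-K20R replicate 2 the CTCF share was 3.00% and 4.06%, still under that of common regions. Within 100 kb, the list counts were 2 for early mesoderm, 2 for neuroectoderm and 3 for fibroblast genes, and by nearest gene 2 for early mesoderm, 7 for cardiac, 1 for pluripotency and 2 for fibroblast genes. Regions chosen on the other pairs of libraries had a peak in the held-out WT library in 84.8% (second replicates) and 84.1% (WT replicate 2 with CTCF-K20R replicate 1), and in the held-out CTCF-K20R library in 16.8% (second replicates) and 16.0% (WT replicate 1 with CTCF-K20R replicate 2). The shares of FOX, E-box, ZIC and T-box core matches under these settings, and the comparison with common regions of the same WT minimum, were added after the data had been seen. The cause of these changes was not tested, except that a lower minimum, fewer libraries or another window changes by construction what is counted.

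The log2 ratio of strong intergenic peaks per library, 0.18, changed sign in some cases with 1 library left out (−0.21 to 0.56). With the replicate number as a replicate block it was also 0.18, and as a pairing of 2 numbers this has no useful test. Of all alternative values, 101 stayed close to the reported one (a share, ratio or median within its 95% interval, a count within 1.5 times, the per-library ratio of the same sign), 53 moved further and 2 changed sign. With 2 libraries per genotype and no read counts, a weak peak in CTCF-K20R cells cannot be told from none.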
